A study of Homo sapiens with 39 samples.

Results

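LINC genes are long noncoding RNA genes that carry the symbol LINC followed by a number, the name given to long intergenic noncoding RNAs without a more specific one. The genes described here are the 96 such symbols whose mean was at least 1 TPM, an abundance per transcript length scaled to the same total in every library, over all 39 libraries of the series. LINC01016 also passed this level but was set aside by the rule. The table listed 791 LINC symbols among 46706 symbols, 665 of them above 0 in some library, and 694 stayed under the level. The members were therefore chosen on their own mean level, and how high they were is a description and not a finding. Just inside the level were LINC00511 (1.01 TPM), LINC00937 (1.03 TPM) and LINC00663 (1.04 TPM), and just outside it were LINC00458 (0.970 TPM), LINC00886 (0.967 TPM) and LINC00235 (0.922 TPM). Without the group in which they were highest, 5 members fell under 1 TPM (LINC00511, LINC00663, LINC00937, LINC01311 and LINC01315), and 26 members were listed at 0 in at least 1 library.

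The libraries came from HCC1428-LTED, a breast cancer line kept without estrogen until it grew in that state, and all of them, controls included, were cultured in medium with charcoal-stripped serum. The 13 groups of 3 libraries were vehicle (DMSO) and, at 30 nM and at 300 nM for 24 h, the antiestrogens fulvestrant, GDC-0810, AZD9496 and SAR439859 and the compounds AZD-SAR and GDC-SAR. Fulvestrant is a steroidal degrader of the estrogen receptor, and SAR439859, GDC-0810 and AZD9496 are oral ligands of it. The labels describe the last pair as hybrids that carry the SAR439859 side chain, GDC-SAR on the GDC-0810 scaffold and AZD-SAR on the AZD9496 scaffold. The series holds a single cell line and no estradiol-treated group, so each difference from DMSO is a difference from estrogen-deprived cells. The labels do not say whether the 3 libraries of a group came from separate cultures, so p-values measure the spread between these libraries, which may be technical. Values in TPM are means ± SD with n = 3 unless given per library.

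Long noncoding RNAs are transcribed and processed much like messenger RNAs. Some act on chromatin or transcription near their own gene, some bind proteins or microRNAs elsewhere in the cell, and others have no known function. In luminal breast cancer cells the estrogen receptor binds near many such genes as well as near coding genes. Several RNAs first named as LINC genes were later renamed for a function or a neighbour, or were found to encode a small protein. Among the 96 members, 67 kept their symbol in RefSeq, 28 had been renamed, and the symbol LINC00087 was an older name of more than 1 gene. RefSeq classed 89 as long noncoding RNAs and 5 as protein-coding genes: LINC01420 (NBDY), LINC00094 (BRD3OS), LINC00998 (SMIM30), LINC00176 (C20orf204) and LINC00594 (DISP2). The remaining member typed by RefSeq, LINC00505, corresponds to the pseudogene FAAHP1. GENCODE 29 classed 4 members as transcribed unprocessed pseudogenes, LINC00505 under the name FAAHP1, LINC00674, LINC00888 and LINC00680. RefSeq lists LINC00674, LINC00888 and LINC00680 as long noncoding RNAs. Of the 92 members found in GENCODE 29, 80 had more than 1 exon and 12 had a single exon, and 8 members lay on chromosome X.

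Promoter windows of 300 bases, from 250 before to 50 after the RefSeq start (GRCh38.p14), were found for 63 members. LINC00221, LINC01278 and LINC00152 are shown as the members with the most calls against DMSO among those with a window, and LINC01287 was chosen after its matches were seen, as a member called lower that holds arms of an estrogen response element. The windows are printed 5′ to 3′ in the direction of transcription, with every motif match in capitals. They are LINC00221 (chr14:106482189-106482488, plus strand), LINC01278 (chrX:63561046-63561345, minus strand), LINC00152, now CYTOR (chr2:87455177-87455476, plus strand), and LINC01287 (chr7:153412185-153412484, minus strand).
LINC00221: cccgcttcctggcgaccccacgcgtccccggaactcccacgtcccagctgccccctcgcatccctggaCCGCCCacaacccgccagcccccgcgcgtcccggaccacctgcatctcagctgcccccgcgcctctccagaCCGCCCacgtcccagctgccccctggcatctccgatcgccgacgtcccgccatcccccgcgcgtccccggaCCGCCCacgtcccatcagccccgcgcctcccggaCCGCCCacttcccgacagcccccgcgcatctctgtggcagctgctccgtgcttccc
LINC01278: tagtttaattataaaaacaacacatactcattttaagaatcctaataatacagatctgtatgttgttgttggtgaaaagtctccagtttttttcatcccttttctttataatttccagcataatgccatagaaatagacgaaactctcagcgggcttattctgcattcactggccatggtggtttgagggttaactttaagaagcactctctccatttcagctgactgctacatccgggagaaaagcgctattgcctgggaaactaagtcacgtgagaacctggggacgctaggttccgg
LINC00152: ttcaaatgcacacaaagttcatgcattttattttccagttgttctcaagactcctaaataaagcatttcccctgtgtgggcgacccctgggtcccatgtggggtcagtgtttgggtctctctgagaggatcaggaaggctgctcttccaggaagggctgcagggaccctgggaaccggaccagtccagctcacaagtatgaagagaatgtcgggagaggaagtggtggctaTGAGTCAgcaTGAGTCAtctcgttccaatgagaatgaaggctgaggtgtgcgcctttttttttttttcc
LINC01287: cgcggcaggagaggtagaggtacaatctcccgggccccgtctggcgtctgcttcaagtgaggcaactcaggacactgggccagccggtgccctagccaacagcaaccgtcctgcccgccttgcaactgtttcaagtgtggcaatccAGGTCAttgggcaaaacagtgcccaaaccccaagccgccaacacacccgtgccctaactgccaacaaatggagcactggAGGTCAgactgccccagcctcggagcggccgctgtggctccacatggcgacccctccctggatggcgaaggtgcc
The capitals mark 4 GC boxes (GGGCGG or its complement) in LINC00221, 2 AP-1 motifs (TGANTCA) in LINC00152 and 2 arms of an estrogen response element (AGGTCA) in LINC01287. The LINC01278 window held none of the 6 motifs searched. Of the members with 6 or 7 calls whose windows are not printed, LINC00630 held 1 GATA motif, LINC01116 3 GC boxes, LINC01431 2 GC boxes, and LINC01224 none.

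Across members, the full estrogen response element was in 0 of the 63 windows and in 0.057% of 35116 promoters of the same length. Both strands were searched, and the element was taken as the palindromic consensus of 2 arms with a spacer, each arm without its outermost base. Its arm AGGTCA was in 14 (22.2%) against 13.8% of all promoters, and a match to the full element need not count as an arm too. Among the members with an arm, LINC01287 was called lower against DMSO, LINC00885 and LINC00853 higher, and the others not at all. LINC00221, LINC01224, LINC00998 and LINC00992 were also called lower, and their windows held no arm. The GC box GGGCGG was in 36 (57.1%) against 45.0%, and the median GC content of the windows was 63.0% against 58.7%. The forkhead motif TGTTTAC was in 1 (1.59%) against 3.42%, the GATA motif AGATAA in 5 (7.94%) against 10.3%, and the AP-1 motif TGANTCA in 6 (9.52%) against 7.71%. These are counts of letters in a window, and the RefSeq start need not be the start used in these cells.

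The libraries listed from 15818 to 26756 symbols above 0, and each summed to 1000000 TPM, so their sequencing depth is unknown. Luminal markers were high in all of them (ESR1 from 250.1 to 568 TPM), whereas COL1A2, DCN, PTPRC, PECAM1, CDH5, KRT5 and KRT14 had medians at or near 0 TPM; COL1A1 (7.32 to 17.8 TPM) and CD68 (4.09 to 12.3 TPM) were above 0 throughout. The snoRNA row SNORA76C took 4.56% to 6.24% of all TPM with DMSO and 6.18% to 18.8% with ligand. Replicate 3 of 30 nM SAR439859 listed the fewest symbols and had 25 members at 0. Of the 3 DMSO libraries, 2 carried an index sequence also used for a treated library, and no pool or lane is labelled, so a pool effect and a ligand effect on DMSO comparisons cannot be told apart. The parts of these in the results were not tested.

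The 96 members summed to 718 ± 11.1 TPM with DMSO and were higher with every ligand. The DMSO libraries summed to 715, 709 and 730.4 TPM. The 36 treated libraries ran from 841 to 1235 TPM with a median of 966, all above DMSO. The mean that chose the members came mostly from treated libraries, so the rule favours genes that are high with ligand. This separation is therefore a description. LINC00505 made up part of the difference, but without it the DMSO libraries ran from 684 to 708 TPM and the treated ones from 753 to 1065. The highest group mean was 1082 ± 135 TPM with 300 nM AZD-SAR, and the lowest treated mean was 869 ± 26.1 with 300 nM AZD9496. In a bulk sample, more RNA per cell and more cells that make it cannot be told apart.

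**Figure D1:**
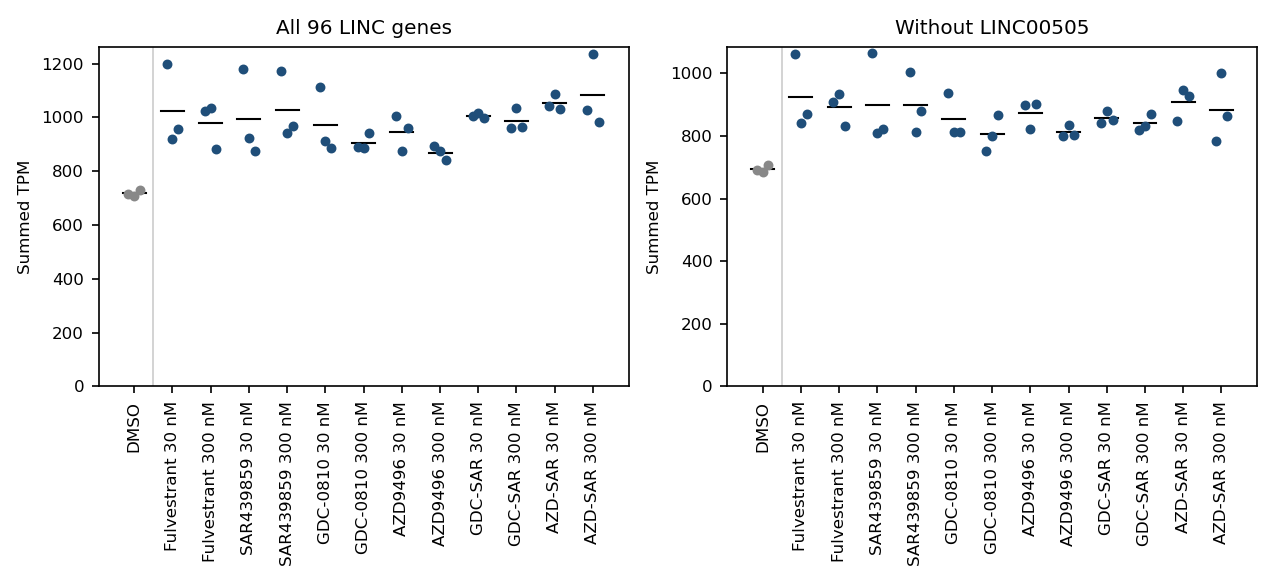
Summed TPM of the 96 LINC genes in each of the 39 libraries (left) and without LINC00505 (right); points are libraries, short lines are group means and both axes start at 0. All 36 treated libraries lie above the 3 DMSO libraries in both panels.

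Levels were uneven. Between 1 and 2 TPM lay 39 members, and only 5 averaged 50 TPM or more. LINC00505 averaged 109 TPM over the 39 libraries, LINC00674 97.5, LINC00657 92.8, LINC01278 59.9 and LINC01420 57.5. They were followed by LINC00894 (33.1 TPM), LINC00263 (27.4), LINC00221 (21.7), LINC01128 (20.8) and LINC01184 (20.2). TPM is a level per transcript length, so these levels can be compared between genes. The median member averaged 2.65 TPM against 9.94 for all 14404 symbols tested, and the median SD within groups was 0.412 on the log2(TPM + 1) scale against 0.291.

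To ask which members responded to each ligand, each group was compared with DMSO by limma on log2(TPM + 1), fitted over all 14404 symbols, and a member was called when its Benjamini-Hochberg adjusted p was under 0.05. At 300 nM, AZD-SAR gave 16 called members (16.7% of the 96, against 25.6% of all symbols), 14 higher (12.7% of all symbols) and 2 lower (12.8%). Fulvestrant gave 12 (12.5% against 19.2%), 8 higher (11.1% of all symbols) and 4 lower (8.12%). SAR439859 gave 11 (11.5% against 24.1%), 8 higher (11.2% of all symbols) and 3 lower (12.8%). All 3 gave fewer calls among members than among all symbols. GDC-0810 gave 8 (8.33% against 16%), 6 higher (6.99% of all symbols) and 2 lower (9.04%). GDC-SAR also gave 8 (8.33% against 20.3%), 7 higher (9.76% of all symbols) and 1 lower (10.5%). AZD9496 gave the fewest, 4 (4.17% against 5.93%), 3 higher (3.71% of all symbols) and 1 lower (2.21%). In all 6 comparisons the share of members called was below that of all symbols.

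At 30 nM, SAR439859 gave 17 called members (17.7% against 25.5% of all symbols), 12 higher (15.3% of all symbols) and 5 lower (10.2%). GDC-SAR gave 17 (17.7% against 22.5%), 13 higher (11.4% of all symbols) and 4 lower (11.1%). AZD-SAR gave 14 (14.6% against 20.6%), 10 higher (11.9% of all symbols) and 4 lower (8.66%). These counts move with single libraries: without 1 library, 30 nM GDC-SAR gave 8 to 13 and 30 nM AZD-SAR 7 to 13, so the ligands are not ranked by them. Fulvestrant gave 13 (13.5% against 19.1%), 11 higher (11.3% of all symbols) and 2 lower (7.82%). GDC-0810 gave 10 (10.4% against 16.8%), 8 higher (7.95% of all symbols) and 2 lower (8.83%). AZD9496 gave 5 (5.21% against 11.3%), 5 higher (9.21% of all symbols) and 0 lower (2.05%). AZD9496 again had the fewest, and none of its calls was a fall. After median-of-ratios scaling, which moved the median of all symbols with 30 nM AZD9496 from 0.18 to 0.00 (log2), AZD9496 had 2 called members at each dose, 1 higher and 1 lower, while the counts of the other ligands moved by at most 2. Without replicate 3 of 30 nM SAR439859, which enters the shared estimate of spread, 30 nM AZD9496 had 9.

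The shares lay closer for rises than for falls. Members called higher made up 14.6% against 12.7% of all symbols with 300 nM AZD-SAR, 13.5% against 11.4% with 30 nM GDC-SAR and 11.5% against 11.3% with 30 nM fulvestrant, and the share was above that of all symbols in 4 of the 12 comparisons. Members called lower made up 2.08% against 12.8% with 300 nM AZD-SAR, 3.12% against 12.8% with 300 nM SAR439859 and 1.04% against 10.5% with 300 nM GDC-SAR. The median difference of the members was above that of all symbols in each of the 12 comparisons, by the most with 300 nM GDC-SAR (0.29 against 0.03 on the log2 scale). Calls also moved with level: with 300 nM AZD-SAR, 1 of 39 members between 1 and 2 TPM was called (2.56%, against 8.31% of symbols in that range), and 8 of 20 between 10 and 50 TPM (40%, against 30.7%). Between 10 and 50 TPM the other ligands at 300 nM were split. The share of members was above with fulvestrant (30% against 22.7%) and AZD9496 (10% against 6.93%). It was below with SAR439859 (20% against 28.5%), GDC-0810 (15% against 19.2%) and GDC-SAR (10% against 24.3%). At 30 nM it was above with every ligand. Whether level accounts for the shares was not tested.

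**Figure D2:**
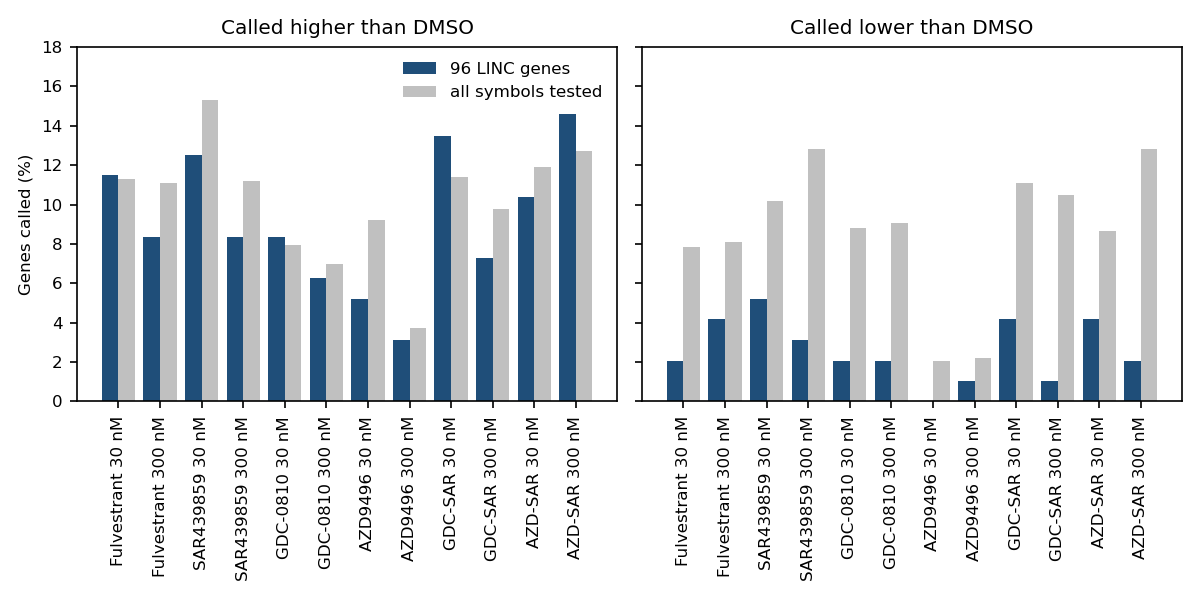
Share of the 96 LINC genes (blue) and of all 14404 symbols (grey) called higher (left) or lower (right) than DMSO at an adjusted p under 0.05, for each ligand and dose; bars start at 0. The blue bars lie above the grey ones in 4 of the 12 comparisons for rises and in none for falls.

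Of the 96 members, 36 were called in at least 1 of the 12 comparisons with DMSO and 60 in none. These comparisons share the 3 DMSO libraries, and in each of them the share of members called was below that of all symbols. How many of all symbols were called in at least 1 of them was not counted, so the 36 are not read as many or few. Among the 36, 29 were called higher and 7 lower, and 0 changed direction between comparisons. Neither the split nor the constant direction was counted over all symbols. The shared DMSO libraries also favour the same direction across comparisons, so neither is read as a trait of the members. LINC00505 was called higher in 11, LINC01278 in 10, LINC00152 and LINC01006 in 9, LINC00649 in 8, and LINC00630, LINC00632, LINC01116 and LINC01431 in 7 each. LINC00221 was called lower in 11 and was the only member called in all 6 comparisons at 300 nM. LINC01287 and LINC01224 were called lower in 6 each.

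**Figure D3:**
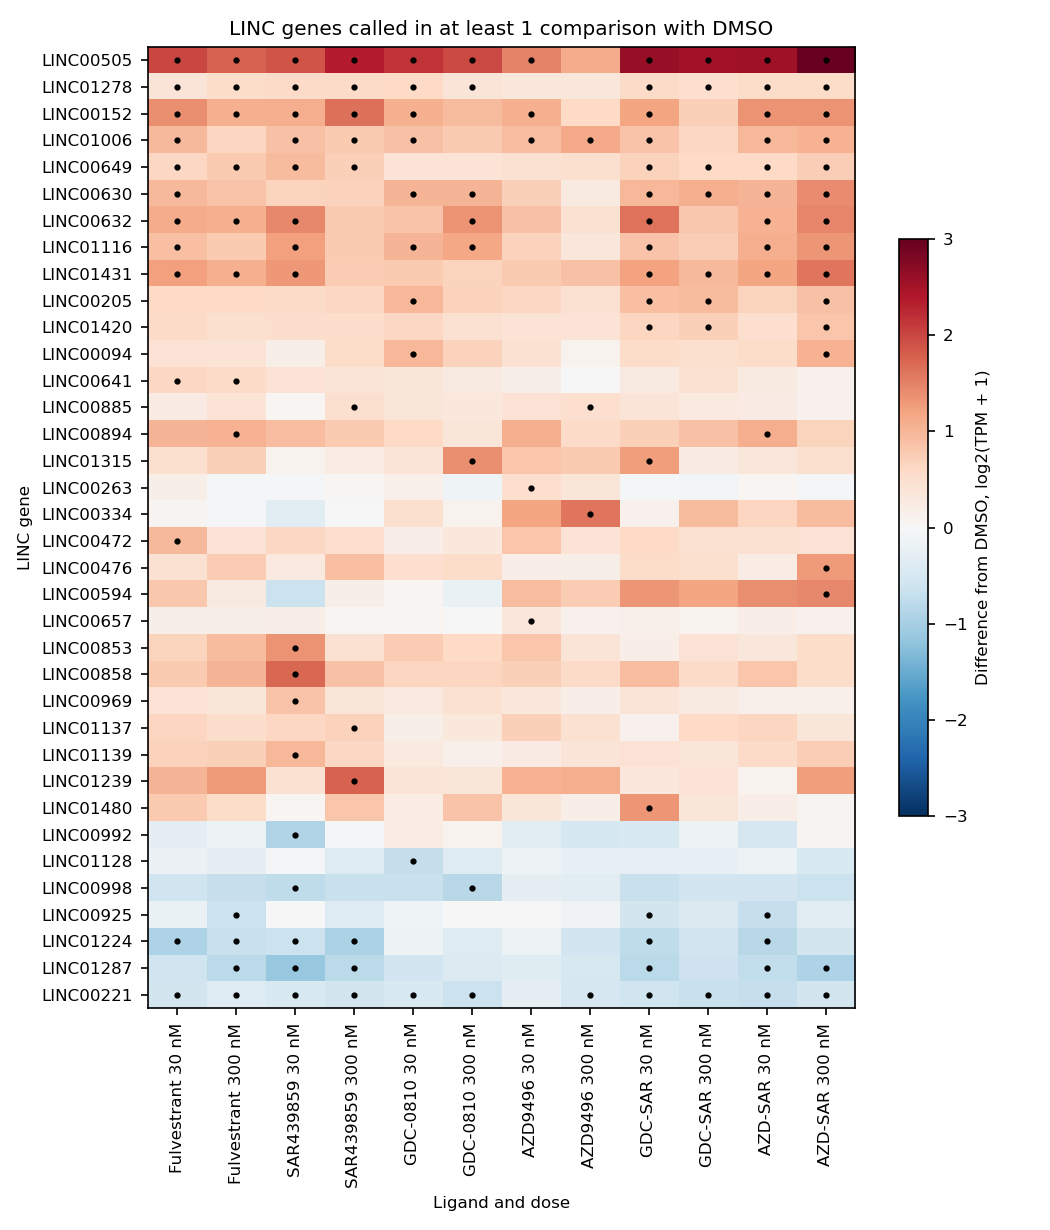
Difference from DMSO in log2(TPM + 1) for the 36 LINC genes called in at least 1 comparison, by ligand and dose, red for higher and blue for lower; dots mark an adjusted p under 0.05. LINC00505 has the strongest red, up to 2.95 with 300 nM AZD-SAR, and the 7 genes at the bottom are the ones called lower.

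LINC00505 had the largest rise of the members and, through its treated libraries, the highest mean over all 39. With DMSO its mean of 23.6 ± 1.43 TPM was below those of LINC00657 (84.1), LINC00674 (64.4), LINC01278 (43.0) and 5 others. The DMSO libraries had 23.5, 25.1 and 22.3 TPM. With 300 nM AZD-SAR they had 245, 233 and 119 TPM, with 300 nM GDC-SAR 143, 202 and 94.1, and with 300 nM SAR439859 167, 131 and 87.7. All 9 were above the highest DMSO library. With 300 nM GDC-0810 the libraries had 139, 84.3 and 74.9 TPM, with 300 nM fulvestrant 115, 100.1 and 50.05, and with 300 nM AZD9496 90.7, 40.7 and 38.9. The differences on the log2(TPM + 1) scale were 2.95 for AZD-SAR (adjusted p = 1.49e-06), 2.51 for GDC-SAR (2.28e-05), 2.35 for SAR439859 (4.25e-05), 1.98 for GDC-0810 (0.000849) and 1.78 for fulvestrant (0.00141; limma, Benjamini-Hochberg, SE 0.391 each). That for AZD9496 was 1.12 (95% interval 0.32 to 1.92) and was not called (adjusted p = 0.0908), although its libraries did not overlap those with DMSO.

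At 30 nM the LINC00505 libraries had 164, 136 and 147 TPM with GDC-SAR, 195, 139.5 and 104 with AZD-SAR, and 174, 99.4 and 75.5 with GDC-0810. They had 137, 78.6 and 84.9 with fulvestrant, 114, 114 and 55.7 with SAR439859, and 103, 53.0 and 57.6 with AZD9496. LINC00505 rose in all 6 comparisons at this dose, from 1.49 with AZD9496 (adjusted p = 0.0125, or 0.0375 with scaling) to 2.61 with GDC-SAR (1.31e-05). Over both doses the 36 treated libraries ran from 38.9 to 245 TPM, all above DMSO, and AZD9496 gave the lowest group mean at each dose. Within treated groups the spread was wide, and the library listed first held the highest value in 11 of the 12 groups. SCD, a coding neighbour of LINC00263, was lowest in the library listed first in 12 of all 13 groups. The labels do not say what the listing order within a group stands for, and its part in these results was not tested. The 5 calls at 300 nM held in every alternative run and with each library left out in turn.

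The identity of LINC00505 is uncertain in these data. RefSeq lists the symbol as an older name of FAAHP1 (chromosome 1, 46432129 to 46482493, plus strand, GRCh38), a transcribed pseudogene that starts downstream of FAAH, which encodes fatty acid amide hydrolase, on the same strand. The table also has a row named FAAHP1. That row had 8.13, 12.01 and 8.74 TPM with DMSO and 6.85, 5.65 and 14.7 with 300 nM AZD-SAR, and it was called in none of the 12 comparisons. FAAH itself had 14.8, 12.3 and 17.7 TPM with DMSO and rose in 9 comparisons, including all 6 at 30 nM and, at 300 nM, fulvestrant (0.95, adjusted p = 0.0048), SAR439859 (0.96, 0.0037) and AZD9496 (0.83, 0.034). With 300 nM AZD-SAR, where LINC00505 was highest, FAAH had 16.3, 24.9 and 21.1 TPM and was not called (0.45, adjusted p = 0.17). How reads were divided among these 3 rows is not given in the sources used here.

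**Figure D4:**
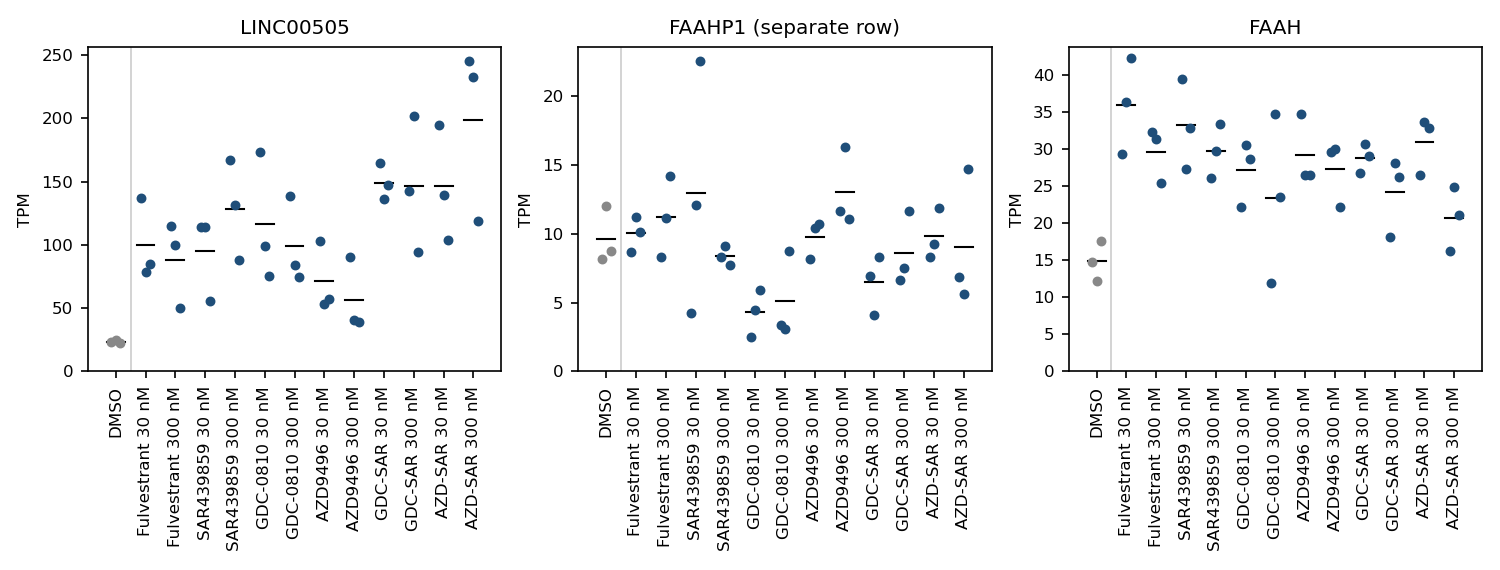
TPM of LINC00505, of the separate FAAHP1 row and of FAAH in each library, with group means as short lines; axes start at 0. All 36 treated libraries lie above DMSO for LINC00505 (38.9 to 245 TPM against 22.3 to 25.1), whereas the FAAHP1 row overlaps DMSO in most groups.

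LINC01278 and LINC00649 were the other members for which all 36 treated libraries were above all DMSO libraries. How many of all symbols lay wholly above or below DMSO was not counted, so this is not a trait particular to members. The coding neighbours ZC3H12A (above in all 36) and SPIN4 (below in all 36) did so too. LINC01278 (chromosome X, 63343227 to 63561071, minus strand), whose promoter is printed among the windows, had 42.7, 41.8 and 44.6 TPM with DMSO and 51.1 to 79.1 TPM with ligand. Its rises lay between 0.39 with 300 nM GDC-0810 (adjusted p = 0.0264) and 0.61 with 30 nM GDC-0810 (0.000908), each with SE 0.121. With 300 nM GDC-0810 the call did not hold without the filter on low values (adjusted p = 0.0541), without GDC-0810 replicate 1 or 2 and without any single DMSO library (up to 0.0868), and the call with 30 nM fulvestrant was lost with scaling (0.0562). With AZD9496 the 300 nM libraries had 51.9, 58.2 and 53.7 TPM and the difference of 0.34 was not called (adjusted p = 0.101). LINC00649 (chromosome 21, 33915534 to 33977691, plus strand) had 3.28, 4.13 and 3.92 TPM with DMSO and 4.43 to 10.5 TPM with ligand. It rose by 0.78 with 300 nM fulvestrant (SE 0.177, adjusted p = 0.00203), 0.74 with AZD-SAR (0.00256) and 0.72 with SAR439859 (0.00328). GDC-0810 at either dose and AZD9496 at either dose did not give a call for LINC00649.

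LINC00152 is now called CYTOR, a cytoplasmic long noncoding RNA linked to proliferation and the cytoskeleton in several cancers. It had 8.53, 5.21 and 6.39 TPM with DMSO. With 300 nM SAR439859 the libraries had 20.3, 23.1 and 25.6 TPM, a rise of 1.65 (SE 0.339, adjusted p = 0.000526), and with 300 nM AZD-SAR 16.2, 16.5 and 23.4 TPM (1.36, 0.0036). It rose in all 6 comparisons at 30 nM, from 1.05 with AZD9496 (adjusted p = 0.0414) to 1.39 with fulvestrant (0.00363), but the AZD9496 call was lost with scaling (0.86, adjusted p = 0.12). At 300 nM, AZD9496 gave 21.6, 9.62 and 5.28 TPM, libraries that spanned the DMSO range, and was not called (0.60, adjusted p = 0.353). A near-identical copy lies on the same chromosome, MIR4435-1HG in the table, and reads could be split between them. MIR4435-1HG was called in 1 of the 12 comparisons, with 30 nM SAR439859 (0.87, adjusted p = 0.023).

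LINC01006, now RNF32-DT, overlaps the start of RNF32 on the opposite strand of chromosome 7 and was called with both doses of AZD9496. The DMSO libraries had 6.19, 9.81 and 8.38 TPM, and the 300 nM AZD9496 libraries had 21.1, 15.5 and 20.1. The rise was 1.13 (SE 0.284, adjusted p = 0.0135), against 1.03 with 300 nM AZD-SAR (0.00769), whose libraries had 17.5, 17.95 and 16.9 TPM. LINC01006 rose in all 6 comparisons at 30 nM (0.85 to 0.999), but the call with AZD9496 at that dose was lost with median-of-ratios scaling (adjusted p = 0.1). The call with 300 nM AZD9496 was lost without its replicate 1 or 3 or without DMSO replicate 1 (adjusted p up to 0.0862).

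The next 4 members each rose in 7 comparisons, 300 nM AZD-SAR among them. LINC01431 (chromosome 20, 23356594 to 23358116) had 8.31, 8.17 and 3.11 TPM with DMSO and 23.3, 24.7 and 14.9 with 300 nM AZD-SAR (1.61, SE 0.312, adjusted p = 0.000309). LINC00632, the host transcript of the circular RNA antisense to CDR1, had 5.66, 4.35 and 7.27 TPM with DMSO and 18.98, 25.6 and 10.4 with 300 nM AZD-SAR (1.46, SE 0.325, 0.00129). In both, the treated libraries were all above the DMSO libraries. LINC00630 had 5.29, 2.56 and 4.95 TPM with DMSO and 15.6, 13.6 and 9.36 with 300 nM AZD-SAR (1.41, SE 0.322, 0.00158). LINC01116, a transcript near the HOXD cluster, had 9.47, 6.70 and 7.25 TPM with DMSO and 28.0, 24.0 and 13.2 with 300 nM AZD-SAR (1.31, SE 0.317, 0.00266). None of these 4 was called with AZD9496 at either dose. These 4 calls with 300 nM AZD-SAR held in every alternative and with each library left out; the tests are limma with Benjamini-Hochberg adjustment.

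Other rises at 300 nM were seen with 1 ligand or a few. LINC01239 rose with SAR439859, from 0.877, 2.91 and 0.715 TPM with DMSO to 6.86, 4.31 and 11.2 (1.78, SE 0.533, adjusted p = 0.0143). LINC01137 also rose with SAR439859 (0.69, 0.0355). The first call was lost without SAR439859 replicate 3 or DMSO replicate 1 or 3 (adjusted p up to 0.0721), and that of LINC01137 without any 1 of 5 libraries (up to 0.148). LINC01315 rose with GDC-0810, from 0.116, 0.491 and 0.438 TPM to 3.899, 1.80 and 2.19 (1.40, SE 0.370, adjusted p = 0.0099), and the call was lost without GDC-0810 replicate 1 (0.077). Without its highest group LINC01315 averaged under 1 TPM, so it is a member only through that group and its rise is a description. LINC00334 rose with AZD9496, from 0, 0.436 and 1.17 TPM to 2.57, 3.99 and 4.03 (1.62, SE 0.498, 0.0495), and LINC00885 rose with it by 0.49 (0.0458). Both AZD9496 calls were lost with median-of-ratios scaling and without any single AZD9496 or DMSO library. LINC00885 was also called higher with 300 nM SAR439859. That call held in all 5 other settings and was lost without SAR439859 replicate 2 or 3 or DMSO replicate 2 (limma adjusted p up to 0.0595). LINC00205 and LINC01420 rose with GDC-SAR (0.95, 0.0282 and 0.71, 0.0237), and LINC00894 rose with fulvestrant (1.04, 0.046), a call that scaling also removed. The GDC-SAR calls of LINC00205 and LINC01420 were lost without GDC-SAR replicate 1 or 2 or DMSO replicate 1. Both members were also called higher with 300 nM AZD-SAR, each call kept in 4 of 5 other settings and lost without some single libraries. LINC01420 is NBDY, which encodes a microprotein of the mRNA decapping complex. LINC00594 rose with AZD-SAR from 0.464, 0.803 and 0.472 TPM to 1.94, 1.56 and 9.15 (1.43, adjusted p = 0.0438). The call was lost without AZD-SAR replicate 3 or any DMSO library (adjusted p up to 0.279), and its current symbol DISP2 is also a separate row, so its identity is uncertain.

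Fewer members fell than rose, among genes chosen on a mean that came mostly from treated libraries. The part of that choice in the split was not tested. LINC00221 was the member that fell in most comparisons. LINC00221 (chromosome 14, 106482439 to 106521073, plus strand), whose window held 4 GC boxes, had 27.8, 31.4 and 32.5 TPM with DMSO, and all 36 treated libraries were lower, from 16.1 to 27.8 TPM. At 300 nM the libraries had 18.1, 17.8 and 20.3 TPM with GDC-SAR (-0.68, adjusted p = 0.000202) and 16.1, 19.6 and 21.9 with GDC-0810 (-0.65, 0.000612). The other ligands at 300 nM gave -0.54 with SAR439859 (0.00169), -0.54 with AZD-SAR (0.00159), -0.50 with AZD9496 (0.0125) and -0.39 with fulvestrant (0.0245), with SE 0.124 each. The comparison without a call was 30 nM AZD9496, whose libraries had 23.0, 25.4 and 25.4 TPM. LINC00221 was called with each of the 6 ligands at 300 nM, but the calls with fulvestrant and AZD9496 were lost with only the libraries compared (adjusted p = 0.0557 and 0.0609), and without DMSO replicate 2 or 3 (up to 0.131 and 0.0674).

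LINC01287 (chromosome 7, 153355365 to 153413981, minus strand), whose window held 2 AGGTCA motifs, had 31.4, 33.2 and 19.4 TPM with DMSO. With 300 nM AZD-SAR it had 10.7, 16.9 and 15.04 TPM (-0.92, SE 0.246, adjusted p = 0.00645, lost without AZD-SAR replicate 1 at 0.0538), and with 30 nM SAR439859 16.9, 14.8 and 6.52 (-1.13, 0.000914). The lowest of these was replicate 3 of 30 nM SAR439859, the library with the fewest symbols. LINC01287 was called with neither GDC-0810 nor AZD9496, where libraries overlapped DMSO at 300 nM. LINC01224 (chromosome 19, 23399233 to 23416075, minus strand) had 4.22, 3.42 and 2.82 TPM with DMSO and 2.12, 1.18 and 0.840 with 300 nM SAR439859 (-0.94, SE 0.237, adjusted p = 0.00392). It too was called with neither GDC-0810 nor AZD9496. LINC00925, the host gene of a microRNA of the miR-9 family, fell with 300 nM fulvestrant from 4.28, 2.93 and 2.97 to 1.96, 1.98 and 1.48 TPM (-0.64, SE 0.181, 0.0124). LINC00998, now SMIM30, which encodes a small membrane protein, fell with 300 nM GDC-0810 from 10.1, 14.04 and 14.5 to 7.23, 4.78 and 8.63 TPM (-0.83, SE 0.260, 0.0283). The LINC00925 call was lost without fulvestrant replicate 3 or DMSO replicate 1 (adjusted p up to 0.0899), and that of LINC00998 without GDC-0810 replicate 1 or 2 or DMSO replicate 2 or 3 (up to 0.151).

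**Figure D5:**
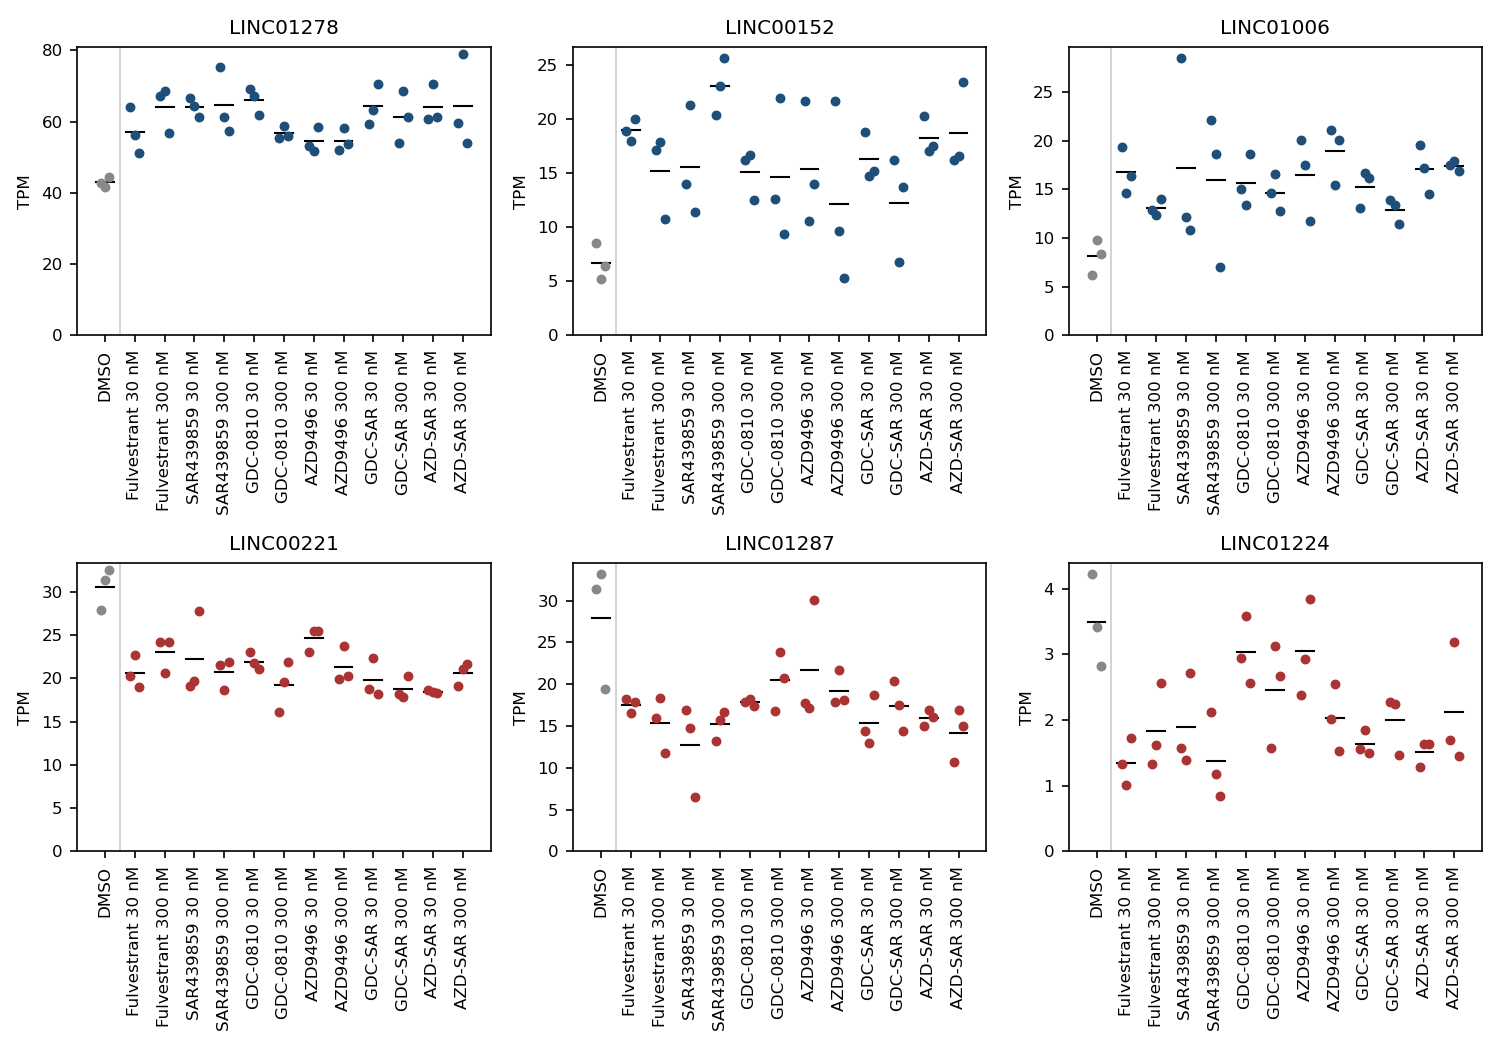
TPM in each library for 3 LINC genes called higher (blue) and 3 called lower (red) in at least 6 comparisons, with DMSO in grey and group means as short lines; each panel has its own axis from 0. All treated libraries lie above DMSO for LINC01278 and below it for LINC00221, and the other 4 genes overlap DMSO in some groups.

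Some abundant members were called in few comparisons or none. LINC00657, now NORAD, a cytoplasmic RNA that binds PUMILIO proteins, had 82.0, 81.9 and 88.4 TPM with DMSO and 82.2 to 118 TPM with ligand. Its only call was with 30 nM AZD9496 (103, 102 and 118 TPM; 0.35, SE 0.088, adjusted p = 0.00903), and it was lost with scaling (0.14, adjusted p = 0.313). LINC00674, the member with the next mean after LINC00505, had 68.7, 40.9 and 83.7 TPM with DMSO and 56.9 to 241 with ligand, and it was called in none. Its difference with 300 nM SAR439859 was 0.94 (95% interval 0.15 to 1.74, adjusted p = 0.077). LINC01184 was called in none, and LINC01128 was lower with 30 nM GDC-0810 alone (-0.72, SE 0.231, adjusted p = 0.0314). LINC00263, now OLMALINC, rose with 30 nM AZD9496 from 24.3, 26.4 and 26.7 to 35.6, 33.5 and 42.6 TPM (0.51, SE 0.126, adjusted p = 0.00817), a call that scaling also removed (0.30, 0.0695).

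The hybrids were compared with their parents at matched doses to ask what the side chain changed. On the GDC-0810 scaffold, GDC-SAR and GDC-0810 differed in 0 of the 96 members at 30 nM (1.28% of all symbols) and 0 at 300 nM (1.25%), with 8 and 5 members at an unadjusted limma p under 0.05. LINC00505 had a difference of 0.54 at 300 nM (95% interval -0.26 to 1.34), and LINC00221 of -0.02 (-0.28 to 0.23). On the AZD9496 scaffold at 300 nM, 3 members were higher with AZD-SAR and 0 lower (3.12%, against 8.57% of all symbols, 2.17% higher and 6.4% lower). LINC00505 was higher by 1.83 (245, 233 and 119 against 90.7, 40.7 and 38.9 TPM, interval 1.03 to 2.63, adjusted p = 0.00422). LINC00630 was higher by 1.15 (15.6, 13.6 and 9.36 against 5.84, 5.76 and 3.96 TPM, adjusted p = 0.0253), and LINC00094, now BRD3OS, by 0.93 (22.4, 25.6 and 13.8 against 12.1, 9.40 and 8.85 TPM, 0.0426). The libraries of the pair did not overlap for any of the 3. All 3 calls were lost with only the 6 libraries compared (adjusted p 0.14 to 0.186), and those of LINC00630 and LINC00094 also without the filter on low values and without replicate 2 or 3 of AZD9496 or replicate 1 or 2 of AZD-SAR.

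At 30 nM the AZD9496 pair differed in 1 member (1.04%, against 1.68% of all symbols, 0.167% higher and 1.51% lower). LINC00925 was lower with AZD-SAR, at 1.27, 1.82 and 2.01 against 3.004, 3.36 and 3.93 TPM (-0.72, SE 0.181, adjusted p = 0.0332), and the call was lost with scaling (0.0633) and without AZD9496 replicate 2 or 3 or AZD-SAR replicate 1 or 2. A test for a difference between the side chain effects on the 2 scaffolds called 0 members at either dose (0% of all symbols at 30 nM and 0.00694% at 300 nM), with 5 and 11 at an unadjusted p under 0.05. For LINC00505 at 300 nM the difference of the effects was 1.29 (95% interval 0.16 to 2.43, adjusted p = 0.272). AZD-SAR and GDC-SAR, which share the side chain, differed in 0 members at both doses (0% of all symbols), with 4 and 3 at an unadjusted p under 0.05. LINC00505 had an interval of -0.36 to 1.24 at 300 nM in that pair, so a difference of that size is not shown to be absent. Against SAR439859, GDC-SAR differed in 0 members (0.257% of all symbols at 30 nM, 0% at 300 nM) and AZD-SAR in 0 (0.0555% and 0%), with 6 to 15 at an unadjusted p under 0.05. AZD9496 and GDC-0810 differed in LINC00263 at 300 nM (32.6, 35.1 and 32.2 against 21.2, 24.3 and 25.0 TPM; 0.49, adjusted p = 0.0488), with 1.04% of members against 1.12% of all symbols, and scaling removed the call (0.0755). At 30 nM that pair differed in 0 members (0.0208% of all symbols), with 10 at an unadjusted p under 0.05.

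No member differed between 300 and 30 nM of the same ligand by limma, with 2 members (fulvestrant, GDC-0810) to 13 (SAR439859) at an unadjusted p under 0.05, and 0% of all symbols were called in any of the 6 comparisons. For LINC00505 the dose difference ran from -0.37 with AZD9496 (95% interval -1.17 to 0.43) to 0.46 with SAR439859 (-0.34 to 1.26). An F test among the 6 ligands, which leaves out DMSO, called 3 members at 30 nM (5.11% of all symbols) and 2 at 300 nM (4.91%). At 30 nM they were LINC00925 (adjusted p = 0.0314), LINC00263 (0.035) and LINC00888 (0.0443), and at 300 nM LINC00505 (0.034) and LINC00883, now DUBR (0.0461). LINC00263 was highest with AZD9496 at 30 nM (37.3 ± 4.78 TPM), and LINC00883 with GDC-SAR at 300 nM (3.53, 2.90 and 3.63 TPM, above all other libraries at that dose). LINC00888 had 1.27 TPM in replicate 3 of 30 nM SAR439859, the library with the fewest symbols, against 3.76 to 8.81 in the other libraries at that dose. The LINC00888 call did not rest on that library, since it was kept without any single SAR439859 library. It was lost without any single library of the other ligands and kept in only 1 of 5 other settings. Each of these 5 calls was lost in at least 1 alternative.

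Positions were compared with the nearest protein-coding gene in GENCODE 29. Of 92 members with a neighbour, 20 overlapped it, 21 lay head to head, 39 lay apart on the same strand, and the median distance was 11266 bp. The neighbour was itself tested for 61 members. Pairs with both genes called numbered from 0 with 300 nM AZD9496 to 6 with 300 nM AZD-SAR. In that last comparison 12 members and 16 neighbours of the 61 pairs were called (26.2% of the neighbours, against 25.6% of all symbols), and 4 of the 6 pairs moved in the same direction. LINC01278 overlaps SPIN4, which encodes a histone reader, on the same strand. SPIN4 had 8.86, 7.82 and 8.70 TPM with DMSO and 3.08 to 7.42 with ligand, below DMSO in all 36 treated libraries, while LINC01278 was above it in all 36. In 8 comparisons both were called, LINC01278 higher and SPIN4 lower, for example by 0.55 and -1.01 with 300 nM AZD-SAR (SPIN4 adjusted p = 0.00033). LINC01420 and SPIN3, which overlap on opposite strands, both rose in 3 comparisons, LINC00630 and BHLHB9 in 4, and LINC00632 and CDR1 in 2. LINC00505 and FAAH both rose in 8.

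The libraries were stranded, but whether the counting used strand is not given in the sources used here, so reads of overlapping genes may not be separated. LINC00641 was higher and HNRNPC lower in 2 comparisons, and LINC01116 higher and MTX2 lower in 2. LINC00263 lies downstream of SCD, the stearoyl-CoA desaturase gene, on the same strand. SCD fell with 300 nM GDC-0810 (-0.83, adjusted p = 0.0044) and 300 nM AZD-SAR (-0.83, 0.0024), where LINC00263 was not called, and with AZD9496 SCD was close to DMSO (-0.06 at 30 nM and 0.04 at 300 nM, adjusted p 0.89 and 0.96). Over the 61 pairs, Pearson's r between a member's and its neighbour's difference from DMSO was 0.168 to 0.382 in the 12 comparisons, values that share libraries and, for overlapping pairs, possibly reads.

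Other long noncoding RNAs with names of their own moved in both directions. Of a list of 48, 32 had a row of that name with a mean of at least 1 TPM. NORAD and CYTOR are on the list but not among the 32, since their rows are the members LINC00657 and LINC00152. At 300 nM, 11 (34.4%) were called with fulvestrant (5 higher, 6 lower), against 19.2% of all symbols, and 11 with SAR439859 (5 and 6), against 24.1%. AZD-SAR also gave 11 (4 and 7), against 25.6%, and GDC-SAR 11 (3 and 8), against 20.3%. GDC-0810 gave 6 (18.8%; 2 and 4), against 16%, and AZD9496 gave 2 (6.25%; 1 and 1), against 5.93%. The differences between these shares were not tested. SNHG3, a snoRNA host gene, fell with all 6 ligands at 300 nM, and PCAT6 rose with all 6. This differs in its split from the members, of which most calls were rises, but the difference was not tested. Of 8 LINC genes linked to the estrogen receptor in breast cancer, 3 were members, and the others did not reach a mean of 1 TPM or had no row. LINC00472 rose with 30 nM fulvestrant alone (0.97, SE 0.281, adjusted p = 0.0145), LINC01116 rose in 7 comparisons, and LINC00511 was called in none. With median-of-ratios scaling the calls among these 3 went from 2 to 1 with 30 nM fulvestrant. With 30 nM GDC-SAR they went from 1, that of LINC01116, to 0.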

How the data were processed

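RNA-seq was read from 39 libraries of HCC1428-LTED cells in 13 groups of 3. The authors deposited TPM values per gene symbol. Reads were aligned with STAR to GRCh38, per the submitters' processing notes; version, counter and annotation: not given in the sources used here. Depth is unknown, and TPM keeps none, so low values carry counting error that cannot be stated.

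From the TPM values, log2(TPM + 1) was fitted with limma 3.58.1 (R 4.3.3) with 13 group means over 39 libraries (26 residual degrees of freedom, intensity trend), on the 14404 symbols with mean TPM of at least 1. Adjusted p-values are Benjamini-Hochberg values over those symbols within each of 30 comparisons of 2 groups, 2 tests of a difference between side chain effects and 2 F tests, called under 0.05. Differences are on the log2(TPM + 1) scale, which understates changes of low genes. The script was tested on simulated data. Groups came from the labels; the series text speaks of duplicates where the labels give 3 libraries. Named members are the 10 with the highest mean, up to 5 called each way per ligand at 300 nM without overlap with DMSO (up to 3 per side chain comparison), up to 5 by F test, and those about the level limit; the nearest coding genes of these are named too. Other named members were chosen after their values were seen. Positions are from GENCODE 29 and RefSeq GRCh38.p14 (Python 3.11.15). The members and lists were chosen with earlier results of these data known. Alternatives were a pseudocount of 0.1, no filter, median-of-ratios scaling, only the libraries compared, no intensity trend, each library left out, and, added after seeing the data, leaving out replicate 3 of 30 nM SAR439859 throughout.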

Additional observations from a re-analysis of the deposited data

How the results depend on the processing

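Of 68 pairs of a member and a comparison called against DMSO at 300 nM, between a hybrid and its parent or in an F test, 23 kept their call in every alternative and with each library left out, 33 with the other settings, 25 with each library left out, and 0 reversed. Called members against DMSO, each library left out in turn, were 7 to 13 for 30 nM fulvestrant, 13 to 23 for SAR439859, 3 to 9 for GDC-0810, 2 to 5 for AZD9496, 8 to 13 for GDC-SAR and 7 to 13 for AZD-SAR. At 300 nM the range was 5 to 13 for fulvestrant, 8 to 18 for SAR439859, 3 to 9 for GDC-0810, 0 to 2 for AZD9496, 4 to 8 for GDC-SAR and 13 to 15 for AZD-SAR. GDC-SAR against GDC-0810 gave 0 throughout, AZD-SAR against AZD9496 0 to 1 at 30 nM and 1 to 8 at 300 nM, and the F test 0 to 4 and 0 to 3.

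Without the filter on low values the counts at 30 nM were 11 for SAR439859, 3 for GDC-0810, 3 for AZD9496 and 11 for GDC-SAR. At 300 nM they were 6 for fulvestrant, 5 for GDC-0810, 2 for AZD9496, 5 for GDC-SAR, 1 for AZD-SAR against AZD9496 and 0 for the F test. With scaling AZD9496 gave 2 at each dose, AZD-SAR against AZD9496 0 and 5, and the F test at 30 nM 1. With only the libraries compared, 30 nM SAR439859 gave 3, 300 nM AZD9496 2, and AZD-SAR against AZD9496 and the F test 0 at both doses. A pseudocount of 0.1 gave 1 in the F test at 300 nM. Without replicate 3 of 30 nM SAR439859, at 30 nM AZD9496 gave 9, GDC-0810 14 and GDC-SAR 19, at 300 nM GDC-0810 gave 10, GDC-SAR against GDC-0810 at 30 nM 1, and AZD-SAR against AZD9496 3 and 6. More symbols are tested without the filter, and fewer libraries set the spread with only those compared; the other causes were not tested. No paired analysis was run, because the labels give no replicate numbers that groups share. Listing order was not fitted as a block, since nothing in the labels ties libraries of the same place together. Some values followed that order, as given for LINC00505 and SCD, and what a block would change in the spread and the calls was not tested. With unknown depth, members near 1 TPM had the widest spread.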
